A study of Mus musculus with 3 samples.

Results

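The 32 genes described here encode the machinery that copies chromosomal DNA: the Mcm helicase and its loaders, the factors that switch it on, the proteins of the replication fork, the enzymes that supply deoxynucleotides and the proteins that restore chromatin behind the fork. They were taken by symbol from the 32285 genes of the count tables, and all 32 were found. The cells were neural progenitors isolated from the brains of mice on postnatal day 1 and grown as neurospheres with 20 ng/mL epidermal growth factor. For treatment, 50000 cells were plated on a coating of poly-D-lysine and left for 16 h. One group then received bulk electroporation, in which a Lonza Nucleofector exposes the whole cell to the field. The second received localized electroporation of 400 pulses at 20 V on a dedicated device, and the remaining group was an untreated control. All cells were collected 4 h after treatment, 10000 cells per group were loaded for droplet sequencing of the 3′ ends of transcripts, and each group is 1 library. The labels name neither a mouse strain nor a delivered cargo, and they do not say whether control cells lay on dishes or devices, so the device and the pulses cannot be told apart in the localized group. With 1 library per group no difference could be tested: the intervals given are 95% intervals of counting error only, and how far 2 cultures of the same group would differ is unknown.

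A cell licenses its origins of replication in G1, when Cdc6 and Cdt1 load rings of the proteins Mcm2 to Mcm7 onto DNA and geminin (Gmnn) later blocks further loading. At the start of S phase Mcm10, Cdc45 and the GINS complex turn these rings into moving helicases, and polymerases, the sliding clamp Pcna and the single-strand binding protein RPA follow. Most of these genes are transcribed in a wave around the passage from G1 to S, a wave driven to a large part by E2F transcription factors, and dividing neural progenitors are a common setting in which this wave is seen.

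Because E2F proteins are the textbook regulators of this family, the promoters were read first, from 250 bases before to 50 after each start in the RefSeq table (build GRCm38.p6). It held 30 promoters of 27 of the 32 genes; Gins1, Gins2, Gmnn, Mcm4 and Rfc2 had none in it. The E2F words TTTCCCGC, TTTCGCGC, TTTGCCGC and TTTGGCGC were searched on both strands, and overlapping matches were counted. A match lay in 12 of the 30 promoters (40.0%), against 744 of all 32851 promoters (2.26%). The shorter CCAAT word occurred in 19 of the 30 (63.3%, against 37.4% of all), and GGGCGG, the GC box, in 21 of the 30 (70.0%, against 35.7%). These are matches of letters in a window and show no binding. The 5 stretches of 40 bases below lie before the start site and outside annotated exons (GENCODE vM21). A stretch was taken for each gene with an E2F match before the start, and stretches overlapping an exon were left out. Those kept came from 3 licensing genes with small differences between libraries, the fork regulator Dtl, and Pola1, the gene with the lowest ratio to control. Each is written 5′ to 3′ along the strand of the gene, and capitals mark the E2F matches.
Mcm5, chr8:75109340-75109379, plus strand: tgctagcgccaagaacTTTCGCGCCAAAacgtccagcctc
Mcm6, chr1:128359792-128359831, minus strand: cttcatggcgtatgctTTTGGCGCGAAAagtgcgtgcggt
Cdc6, chr11:98907997-98908036, plus strand: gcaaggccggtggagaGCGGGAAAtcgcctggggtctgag
Dtl, chr1:191575545-191575584, minus strand: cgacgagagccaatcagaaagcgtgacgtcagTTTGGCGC
Pola1, chrX:93632270-93632309, minus strand: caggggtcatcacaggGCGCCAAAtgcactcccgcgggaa
In Mcm5 and Mcm6 the capitals are 2 overlapping matches on opposite strands, whereas the other 3 stretches hold 1 match each. The Cdc6 stretch lies inside the annotated gene, between exons, since the annotated gene begins further upstream. The other 4 overlap no annotated gene.

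The 3 libraries held 6091 control, 5531 bulk and 6298 localized cells, with medians of 9542, 11644 and 10980.5 unique molecular identifiers (UMIs, each counting 1 captured transcript). Between 6 and 9 cell barcodes were shared by any pair of libraries. The label of neural progenitors was met by the markers: all 11 stem and progenitor markers reached a mean of 5 CPM, and the summed levels of 7 microglial and 4 erythroid markers were below 0.1 CPM in every library. Markers of oligodendrocyte precursors and astrocytes were present too, and were higher in localized cells. The 10 precursor markers summed to 673 CPM in control, 743 in bulk and 987 in localized cells, and the 11 astrocyte markers to 494, 553 and 999 CPM. Their part in the replication values over all cells was not tested; values within clusters are given further on. CPM is the number of UMIs of a gene per 1000000 UMIs of the library's cells. Differences are log2 ratios of CPM after adding 1 CPM, and a gene is called past the fold limit when its log2 ratio is at least 0.322 above or below 0. The backgrounds are taken over the 9535 genes with a mean of at least 5 CPM over the libraries, a floor that all 32 replication genes reached. Of the 10 precursor markers 8 reached it, with a median log2 ratio of -0.20 in bulk over control. There 4 of the 8 were past the limit downwards and 1 upwards, beside 5.69% and 18.8% of all genes. The higher precursor sum in bulk was thus not shared by all of these markers.

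Summed over the 32 genes, replication transcripts made up 1995 CPM (1984 to 2006) of the control library, 2191 CPM (2181 to 2202) of the bulk library and 2139 CPM (2129 to 2150) of the localized library. Scaled by totals, both treated libraries were above control, and the intervals do not overlap. Scaled by median of ratios, which sets the libraries by the typical gene instead of the total, the sums were 2151, 2138 and 2002, so control was then the highest. In sums over cells, more replicating cells and more replication RNA per cell cannot be told apart. In barcodes of 10 to 100 UMIs, which hold mostly free RNA, the sum was 1759, 1681 and 1662 CPM, so the order there was not that of the cells.

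In bulk over control, 6 of the 32 genes were past the limit upwards (Rpa2, Fen1, Mcm10, Clspn, Pold3 and Slbp), against a background of 18.8% of all genes, and none was past it downwards, against 5.69%. The median log2 ratio of the replication genes was 0.14 and that of all genes 0.093. The share of replication genes past the limit upwards was therefore at the background. Median-of-ratios scaling shifted the median of all genes by -0.14, to -0.043, and 9.48% of all genes were then past the limit upwards and 12.8% downwards. The replication median was -0.0039, with 15 genes above 0 and 17 below. Only Rpa2 (0.45) was then past the limit upwards, and Gins1 (-0.35) and Pola1 (-0.36) were past it downwards.

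In localized over control, 4 genes were past the limit upwards (Ung, Rpa2, Dut and Fen1), against 25.0% of all genes, and Pola1 and Gins1 were past it downwards, against 8.39%. The upward share was below the background and the downward share close to it. The median was 0.077 for the replication genes and 0.12 for all genes. Median-of-ratios scaling shifted the median of all genes by -0.20, to -0.075, with 11.0% of them past the limit upwards and 20.3% downwards. It left 2 replication genes past the limit upwards, Ung (0.65) and Rpa2 (0.44), with 7 past it downwards and a replication median of -0.12.

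In bulk over localized, Gins2 was past the limit upwards, against 10.2% of all genes, and Ung was past it downwards, against 12.6%. The medians were 0.10 for the replication genes and -0.028 for all genes. Median-of-ratios scaling moved the latter only to 0.030, with 13.6% of all genes past the limit upwards and 9.37% downwards. Under it 6 replication genes were past the limit upwards and 1 downwards. Bulk and localized are compared with the same control library, so their ratios to control share its error, and the values are set side by side and not compared with each other.

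Genes with and without an E2F match in the promoter table overlapped in their ratios between libraries. In bulk over control, the 12 genes with a match had a median log2 ratio of 0.12 (-0.22 to 0.41) and the 15 without one a median of 0.19 (-0.14 to 0.59). In localized over control the medians were 0.11 (-0.50 to 0.32) and 0.036 (-0.29 to 0.84).

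**Figure D1:**
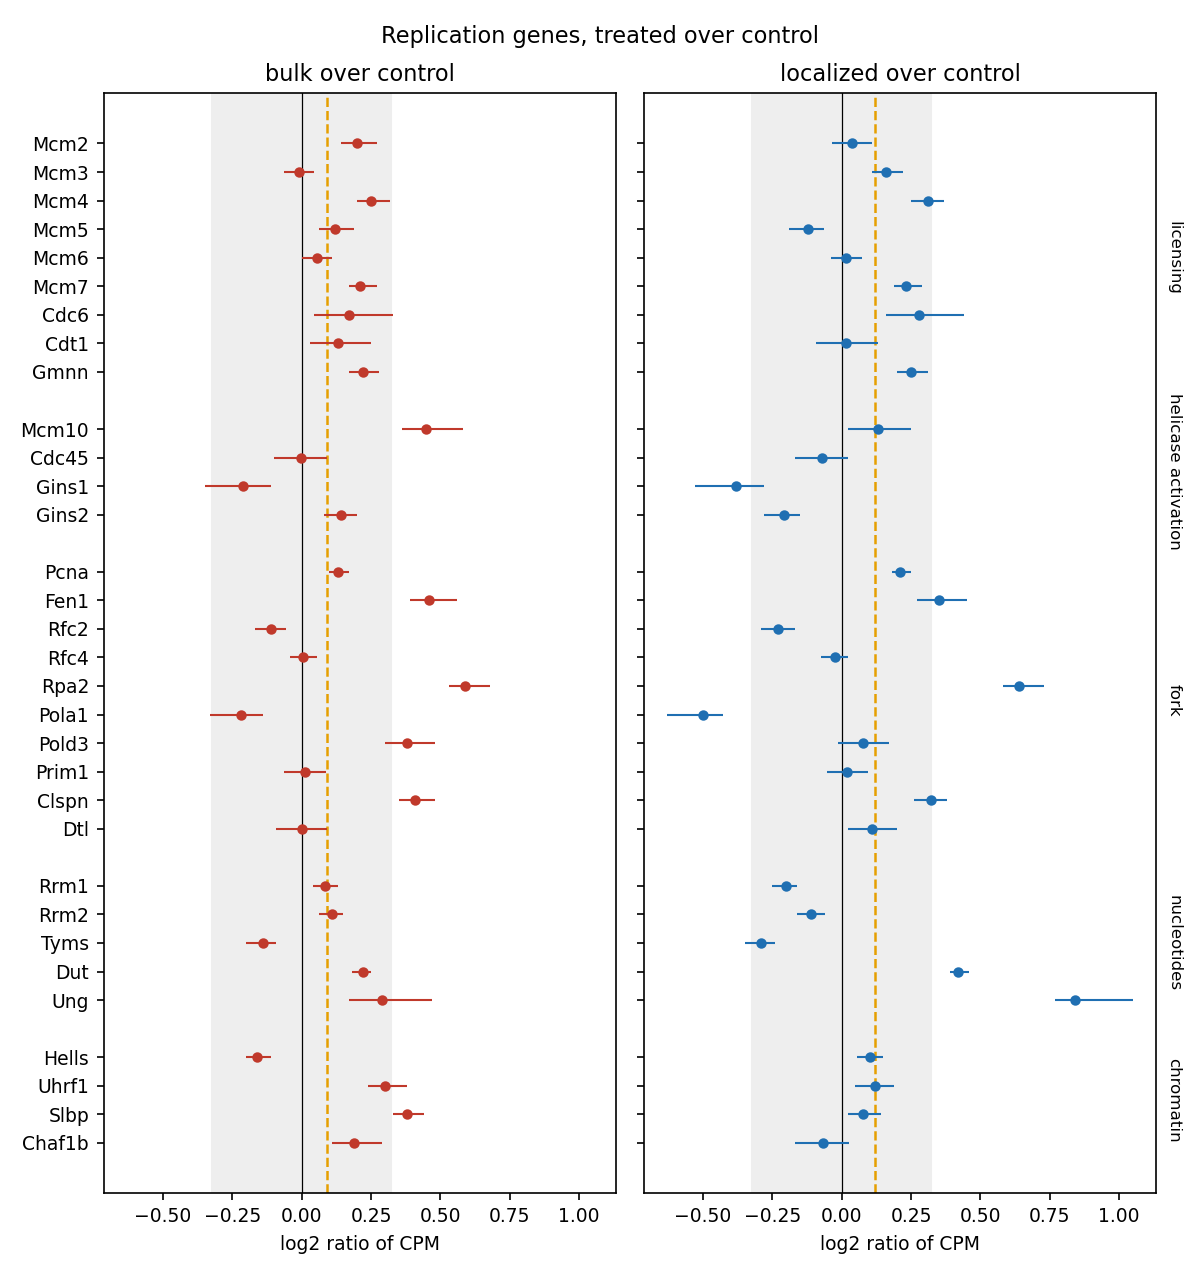
Log2 ratio of CPM for each of the 32 genes, bulk over control on the left and localized over control on the right, with 95% intervals of counting error. Grey marks ratios within the fold limit of 0.322 and the dashed line is the median of all genes (0.093 and 0.12); Rpa2 lies to the right of the grey band in both panels, Ung (0.84) in the localized panel, and Pola1 (-0.50) to its left there.

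Licensing was the role in which none of the genes, 9 in all, was past the fold limit in any of the 3 comparisons: the median log2 ratio to control was 0.17 for bulk and 0.16 for localized cells, and that of bulk to localized was -0.020. Under median-of-ratios scaling the first 2 medians became 0.041 and -0.040. Mcm4, a subunit of the helicase ring, had 58.3 CPM in control, 69.7 in bulk and 72.3 in localized cells. Mcm7, another subunit, had 87.9, 102 and 104 CPM, and Gmnn, the inhibitor of Cdt1, 71.9, 84.1 and 85.6 CPM. In these 3 genes both treated libraries lay above control, under median-of-ratios scaling too, though there by at most 0.11, and the treated libraries were close to each other. Log2 ratios of localized to control were 0.31 (0.25 to 0.37) for Mcm4, 0.23 for Mcm7 and 0.25 for Gmnn. Other subunits of the same ring did not follow. Mcm5 had 60.8 CPM in control, 66.3 in bulk and 55.7 in localized cells, so localized was the lowest library. Mcm3 had 83.3, 82.8 and 93.3 CPM, with localized the highest. Mcm6 stood at 75.1, 78.1 and 76.0 CPM and Mcm2 at 45.9, 52.9 and 47.1 CPM. The ring carries its subunits in equal numbers, but their transcripts did not keep 1 order over the libraries. Of the loaders, Cdc6 had 11.0 CPM (10.2 to 11.9) in control, 12.5 in bulk and 13.5 in localized cells, and Cdt1 had 19.1, 21.0 and 19.3 CPM. Only 680 UMIs of Cdc6 were counted in control, and the interval of its localized ratio ran from 0.16 to 0.44.

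The 4 genes of helicase activation had a median log2 ratio of bulk to localized of 0.24 (0.29 under median-of-ratios scaling). All 4 ratios were above 0, as were those of 4327 of all 9535 genes, but that of Cdc45 was 0.069 with an interval of -0.020 to 0.16. Within clusters 1 to 7, described further on, bulk was above localized in 7 of 7 for Gins2, in 4 of 7 for Mcm10 and for Gins1, and in 2 of 7 for Cdc45. Mcm10, which helps start unwinding, had 16.9 CPM in control, 23.4 in bulk and 18.6 in localized cells. Its ratio was 0.45 (0.36 to 0.58) in bulk over control and 0.32, just under the limit, in bulk over localized. Gins2 had 58.6, 64.6 and 50.6 CPM, a bulk over localized ratio of 0.35 (0.29 to 0.41). Gins1, a partner of Gins2 in the same complex, had 17.7 CPM in control, 15.2 in bulk and 13.4 in localized cells, and was below control in both treated libraries (-0.21 and -0.38). The gene (ENSMUSG00000027454) lies on chromosome 2 at 150905400 to 150931280. Cdc45, the remaining member of the active helicase, had 26.1, 26.1 and 24.8 CPM, and its 2 ratios to control had intervals that include 0. Scaled by totals, the subunits of GINS thus lay in different orders, with bulk the highest library for Gins2 and control the highest for Gins1. Under median-of-ratios scaling only Mcm10 of the 4 genes was above control in bulk cells, and 0 were in localized cells. Control was then the highest library for both Gins2 and Gins1.

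The fork genes held the gene farthest above control in bulk cells, Rpa2, and the one farthest below it in localized cells, Pola1. Rpa2 (ENSMUSG00000028884, chromosome 4 at 132768332 to 132778752), a subunit of the single-strand binding protein RPA, had 33.8 CPM in control cells (32.4 to 35.3), 51.4 CPM in bulk cells (49.8 to 53.0) and 53.2 CPM in localized cells (51.6 to 54.9). Both treated libraries were well above control and their intervals overlap. The log2 ratios were 0.59 (0.53 to 0.68) and 0.64 (0.58 to 0.73). With each cell thinned to 3000 UMIs, an Rpa2 UMI was found in 8.24% of control cells and in 13.3% of both bulk and localized cells. Unthinned, the shares were 25.3%, 39.3% and 39.4%. The astrocyte-like cluster described further on had thinned shares of 4.16%, 4.76% and 6.70%. Pola1 (ENSMUSG00000006678, chromosome X at 93304767 to 93632155) is the catalytic subunit of polymerase alpha, which extends the RNA primers. It had 28.4 CPM in control cells (27.0 to 29.7), 24.2 CPM in bulk cells (23.1 to 25.3) and 19.7 CPM in localized cells (18.7 to 20.7). The order was control, bulk, localized, with no overlap of intervals, and the ratios to control were -0.22 and -0.50. Prim1, the primase subunit that works in the same complex, had 41.7, 42.1 and 42.3 CPM, and its ratios of 0.013 and 0.020 had intervals that include 0.

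Among the other fork genes, Fen1, the nuclease that trims flaps between lagging-strand fragments, had 26.5 CPM in control, 36.7 in bulk and 34.0 in localized cells. Its ratios were 0.46 (0.39 to 0.56) and 0.35 (0.27 to 0.45). Clspn encodes claspin, which relays the fork checkpoint signal to Chk1. It had 55.7, 74.3 and 69.6 CPM, with ratios of 0.41 and, just under the limit, 0.32. Fen1 and Clspn therefore shared with Rpa2 the feature that both treated libraries stood above control. Pold3, an accessory subunit of polymerase delta, was different: 26.5 CPM in control, 34.8 in bulk and 28.0 in localized cells, a bulk ratio of 0.38 and a localized ratio of 0.077 whose interval includes 0. Pcna, the sliding clamp, had 192, 211 and 223 CPM. Of its loader, Rfc2 had 70.8, 65.3 and 60.2 CPM and Rfc4 96.7, 97.1 and 94.9 CPM. Dtl, which directs the destruction of Cdt1 at active forks, had 27.8, 27.8 and 30.0 CPM. For Rfc4 and Dtl no ratio between libraries over all cells exceeded 0.11 in size. Within clusters 1 to 7, described further on, Dtl ratios to control ran from -0.37 to 0.81 in bulk and from -0.34 to 1.09 in localized cells. In each treated library 3 of these 7 Dtl ratios were above 0 and 4 below.

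**Figure D2:**
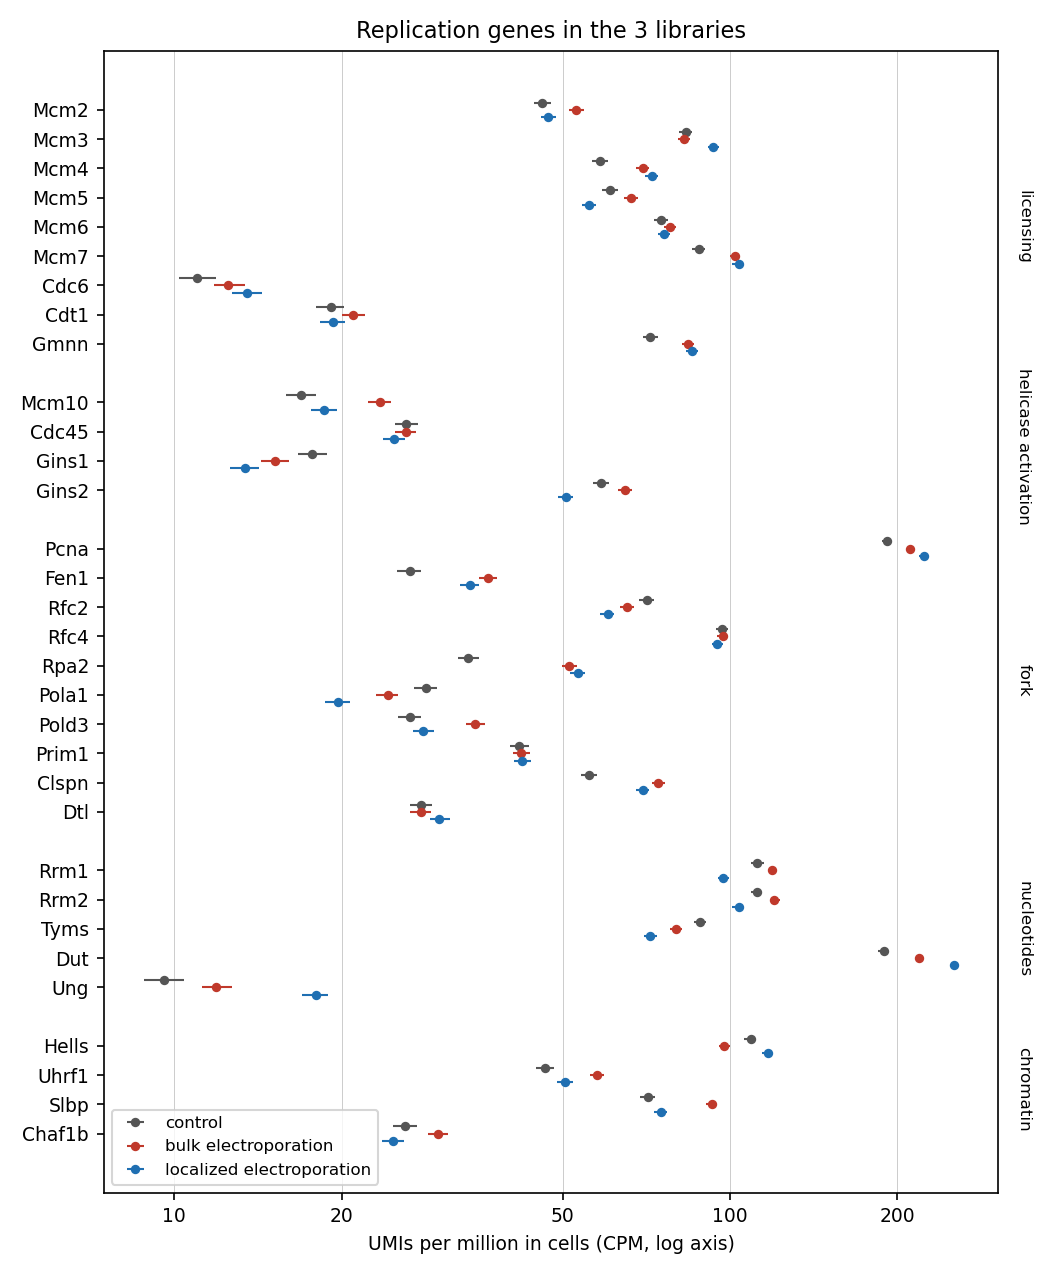
Level in CPM (log axis) of each of the 32 genes in the control, bulk and localized libraries, ordered by role, with exact 95% Poisson intervals of counting error. For Rpa2 both treated points (51.4 and 53.2) lie to the right of control (33.8), for Ung the localized point (18.0) stands apart, and for Pola1 the points run from 28.4 in control down to 19.7 in localized.

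The nucleotide genes split in the localized library. Ung and Dut, which keep uracil out of DNA, were higher there, and the genes of deoxynucleotide synthesis were lower. Ung (ENSMUSG00000029591, chromosome 5 at 114130386 to 114139323) encodes the uracil-DNA glycosylase. It had 9.58 CPM in control cells (8.83 to 10.4), 11.9 CPM in bulk cells (11.2 to 12.7) and 18.0 CPM in localized cells (17.0 to 18.9). The localized ratio of 0.84 (0.77 to 1.05) was the largest of the 32 genes in any comparison, and the bulk ratio was 0.29. Few cells had a UMI of it: 3.15%, 3.60% and 5.08% after thinning and 8.06%, 13.1% and 16.4% unthinned, beside thinned shares of 1.85%, 2.81% and 1.84% in the astrocyte-like cluster. Dut, the enzyme that removes dUTP from the nucleotide pool, had 189 CPM in control, 219 in bulk and 253 in localized cells, with ratios of 0.22 (0.18 to 0.25) and 0.42 (0.39 to 0.46). For both genes the order was control, bulk, localized. Rrm1 and Rrm2, the subunits of ribonucleotide reductase, had 112, 119 and 97.2 CPM and 112, 120 and 104 CPM. Scaled by totals, the bulk library was the highest in each and the localized library the lowest. Tyms, which makes the thymidine nucleotide from dUMP, had 88.4, 80.0 and 71.9 CPM. Its ratios were -0.14 and -0.29, the reverse of the order seen for Dut. None of the ratios of Rrm1, Rrm2 and Tyms was past the fold limit. With median-of-ratios scaling Tyms was, at -0.49 in localized over control, and the Ung, Dut and Tyms ratios to control kept their signs. The bulk over control ratios of Rrm1 and Rrm2 did not, so control was then the highest library for both.

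Of the 4 chromatin genes, 3 were highest in the bulk library under both scalings. Slbp, which binds the stem-loop of histone messages, had 71.1 CPM in control, 92.7 in bulk and 75.1 in localized cells. Its bulk ratio was 0.38 (0.33 to 0.44) and its localized ratio 0.077. Uhrf1, which reads hemimethylated DNA and brings in the maintenance methyltransferase, had 46.5, 57.6 and 50.5 CPM. Chaf1b, a subunit of the assembly factor that deposits histones on new DNA, had 26.0, 29.8 and 24.7 CPM. Only the bulk ratio of Slbp was past the fold limit, and not under median-of-ratios scaling (0.24). Hells, a chromatin remodeller needed for DNA methylation, went the other way, with 109 CPM in control, 97.6 in bulk and 117 in localized cells. Its bulk over localized ratio was -0.26 (-0.30 to -0.21).

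A list of 54 other replication genes, of which 52 reached 5 CPM, had median ratios to control of 0.14 in the bulk and 0.17 in the localized library. In bulk 11 of the 52 were past the limit upwards and 2 downwards, beside 18.8% and 5.69% of all genes. In localized cells 16 were past it upwards and 3 downwards, beside 25.0% and 8.39%. Median-of-ratios scaling gave medians of -0.0050 and -0.027, and the counts became 4 upwards and 6 downwards in bulk, and 5 and 13 in localized cells. Rpa3, a small subunit of RPA, had 30.3 CPM in control, 35.9 in bulk and 53.5 in localized cells (0.24 and 0.80). Asf1b, a histone chaperone, had 9.89, 18.1 and 13.1 CPM (0.81 and 0.38). Pold2, a subunit of polymerase delta beside Pold3, had 52.1, 37.4 and 33.4 CPM (-0.47 and -0.62). Scaled by totals, Rpa3 thus lay above control in both treated libraries, as Rpa2 did, and Pold2 lay below it in both.

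Among 29 measured regulators of the passage from G1 to S, 11 were past the limit upwards relative to control in bulk cells and 10 in localized cells, beside 18.8% and 25.0% of all genes. Downwards there were 0 and 1, beside 5.69% and 8.39%. The medians were 0.23 and 0.15. Under median-of-ratios scaling they were 0.087 and -0.045, with 7 genes upwards and 0 downwards in bulk, and 7 and 8 in localized cells. Cyclin E2 (Ccne2), a partner of Cdk2 at the start of S phase, had 7.46 CPM in control, 17.2 in bulk and 17.5 in localized cells (1.11 and 1.13). Cyclin E1 (Ccne1) had 16.8, 30.2 and 23.2 CPM. The Cdk inhibitor Cdkn1a, by contrast, had 564, 773 and 419 CPM (0.46 and -0.43), so it lay above control in bulk and below it in localized cells. Scaled by totals, both cyclin E genes were therefore above control in each treated library by more than any licensing gene.

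The 24 genes of mitosis, the phase that follows replication, were set beside the replication genes. Their summed level was 3018 CPM in control cells, 3355 CPM in bulk cells and 2616 CPM in localized cells. Localized cells were therefore below control for mitosis genes, and above it for replication genes when scaled by totals. Under median-of-ratios scaling both medians of localized over control were below 0, at -0.40 for mitosis genes and -0.12 for replication genes. That of all genes was then -0.075, so the replication median lay closer to it than the mitosis median did. In localized over control 8 of the 24 were past the limit downwards and 0 upwards, beside 8.39% and 25.0% of all genes, with a median of -0.19 beside 0.077 for the replication genes. Median-of-ratios scaling put 16 past it downwards. In bulk over control 6 were past it upwards and 0 downwards, beside 18.8% and 5.69% of all genes, with a median of 0.20. Median-of-ratios scaling left 0 past it in either direction, with a median of 0.052. All 24 were higher in bulk than in localized cells, as were 4327 of all 9535 genes. The median of the 24 was 0.36, beside -0.028 for all genes. In this comparison 14 of the 24 were past the limit upwards and 0 downwards, beside 10.2% and 12.6% of all genes. Mki67 had 221, 244 and 175 CPM and Top2a 323, 317 and 218 CPM in control, bulk and localized cells.

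Per-cell counts were compared after thinning every cell to 3000 UMIs, so that depth did not set them. The mean number of replication UMIs was 5.61 per control cell, 6.13 per bulk cell and 5.92 per localized cell, and the medians were 5, 5 and 4. A cell with at least 11 was called replication-rich, the smallest number that at most 20% of control cells reached. This is a range of a sum and not a cell type, and 7.80% to 8.21% of cells sat at 11 or 10. Replication-rich cells made up 16.5% of control cells (15.6 to 17.4), 20.8% of bulk cells (19.7 to 21.8) and 21.1% of localized cells (20.1 to 22.2). Both treated libraries exceeded control, and did not differ from each other beyond counting error. Thinning gives every cell the same total, so these shares, like CPM, are scaled by totals. They were not computed under median-of-ratios scaling, which put control highest in the summed level. Without thinning, at a limit of 37 UMIs, the shares were 19.5%, 34.0% and 31.6%. At the other end, at most 2 replication UMIs were counted in 2022 of 6091 control cells (33.2%), 1771 of 5531 bulk cells and 2343 of 6298 localized cells (37.2%). Localized cells were thus more often than control cells at both ends of the distribution, and their median was lower although their mean was higher. In the astrocyte-like cluster, which has few mitosis transcripts, 2.54%, 1.52% and 2.38% of cells were replication-rich at median depths of 10083, 11542.5 and 9927 UMIs.

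Crossing this range with the mitosis genes, with a limit of 16 mitosis UMIs set in the same way, separated the treated libraries. Replication-rich cells with few mitosis UMIs were 13.9% (13.1 to 14.8) of control, 15.9% (15.0 to 16.9) of bulk and 19.2% (18.3 to 20.2) of localized cells. Cells rich in both were 2.54% (2.16 to 2.97), 4.83% (4.28 to 5.43) and 1.92% (1.60 to 2.29). Cells rich in mitosis UMIs only were 16.6%, 18.0% and 12.8%. The additional replication-rich cells of the localized library were thus cells with few mitosis UMIs, while in bulk the share rich in both was the highest of the 3 libraries. Doublets were not called; with cells above 25000 UMIs left out, replication-rich cells of all kinds were 16.0%, 19.8% and 21.0%. In the replication-rich cells with few mitosis UMIs, Ccne2 stood at 24.0 CPM in control, 50.7 in bulk and 46.4 in localized cells, so its excess over control was also present within this range of cells.

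**Figure D3:**
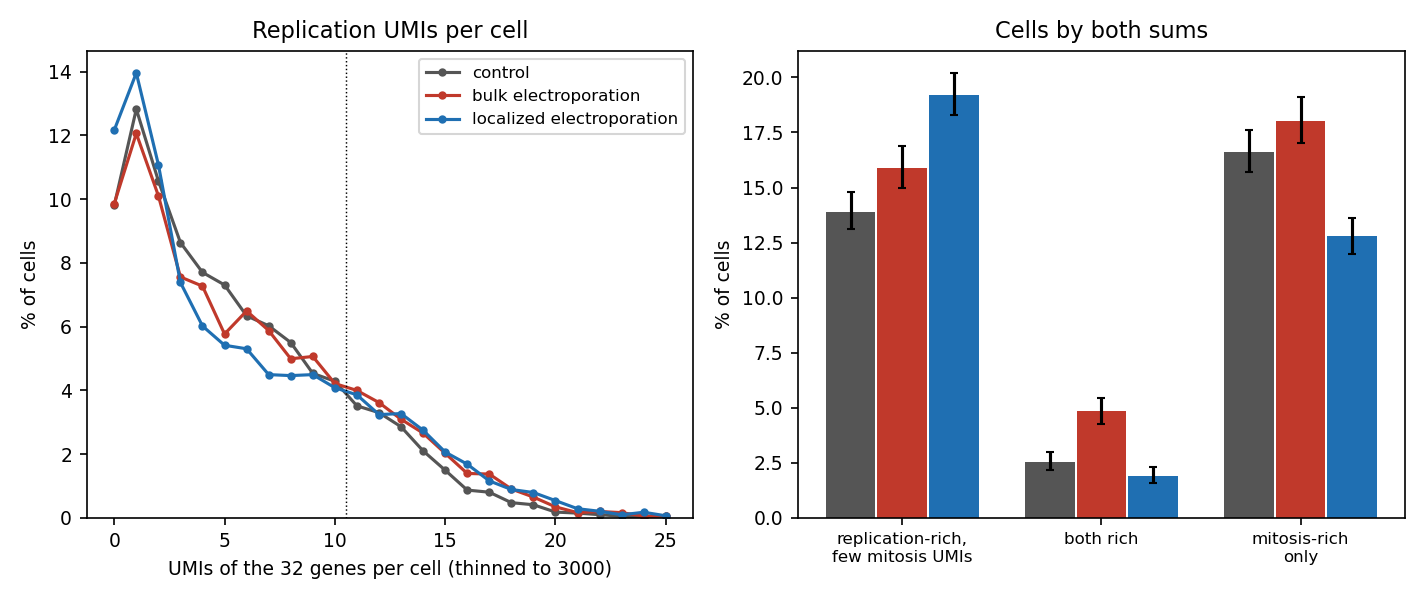
Left, percent of cells at each number of replication UMIs after thinning to 3000 UMIs, with the dotted line at the limit of 11. Right, percent of cells (bars from 0, exact 95% binomial intervals) that are replication-rich with few mitosis UMIs, rich in both, or mitosis-rich only: localized cells have the highest bar of replication-rich cells with few mitosis UMIs (19.2%) and the lowest bar for mitosis-rich cells (12.8%), and bulk cells the highest bar of cells rich in both (4.83%).

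To place the genes among the cells, cells of all libraries were clustered without the 32 genes. Clusters are called by number, and their sizes are not compared. Cluster 4, whose leading genes include Ccne2 and the linker histone Hist1h1b, held the highest summed replication level, at 3827 CPM in 464 control cells, 4087 in 568 bulk cells and 4051 in 1088 localized cells. It has no name here because no fixed marker led it. The mitotic-like cluster 2 had 2612, 2891 and 2657 CPM. Cluster 7, oligodendrocyte precursor-like with mitosis genes, had 2779, 3138 and 2853 CPM. In the oligodendrocyte precursor-like cluster 3, with few mitosis transcripts, the sum was 1163, 1191 and 1229 CPM, and in the astrocyte-like cluster 5 it was 806, 639 and 699 CPM. The spread between clusters was thus several times that between libraries. Cluster 5 was the only 1 of clusters 1 to 7 in which both treated libraries were lower than control, with medians over 30 measured genes of -0.37 in bulk and -0.31 in localized cells.

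**Figure D4:**
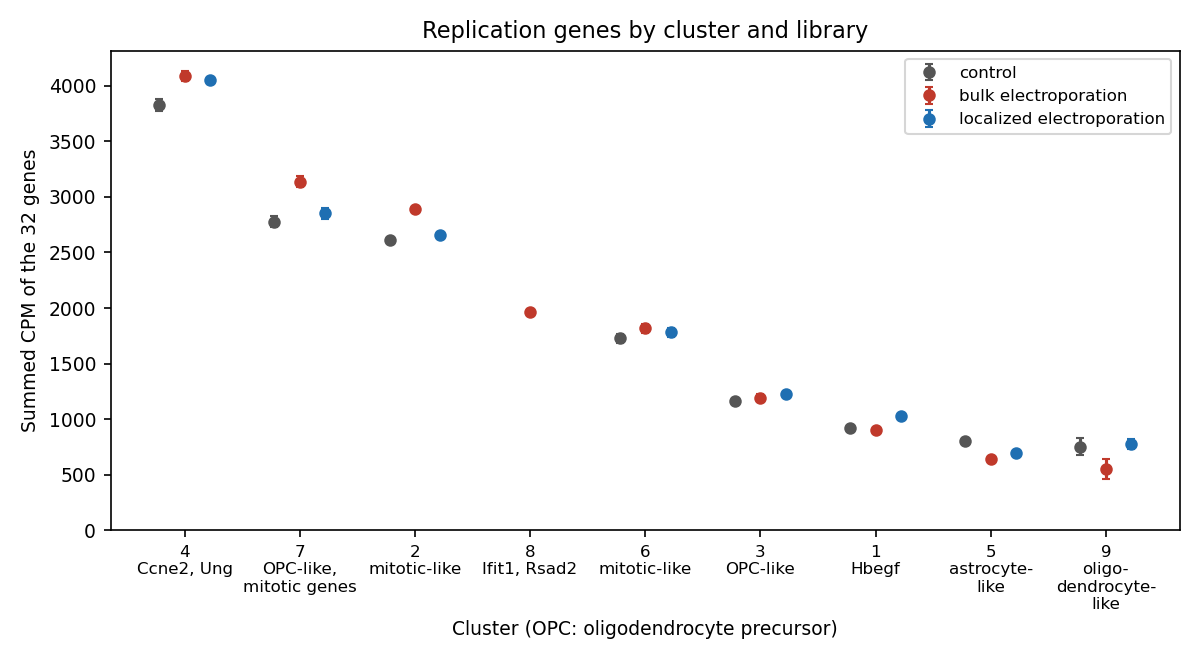
Summed CPM of the 32 genes in each cluster (number and leading genes or name on the x axis) and library, for combinations of enough cells, with exact 95% Poisson intervals. The level falls from 3827 to 4087 CPM in cluster 4 to 639 to 806 CPM in cluster 5 and 548 to 778 CPM in cluster 9. In most clusters the 3 libraries lie close together.

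The genes past the fold limit were then followed through clusters 1 to 7, in each of which all libraries had cells in number. Rpa2 was higher in localized than in control cells in 7 of 7 clusters (0.22 to 0.97), and in bulk in 6 of 7, with -0.44 in cluster 5. Dut was higher in localized cells in 7 of 7 (0.23 to 0.53). Pola1 was lower than control in 7 of 7 clusters in localized (-0.69 to -0.085) and in bulk (-0.76 to -0.12), and so was Gins1. For these genes the difference, scaled by totals, was therefore not confined to 1 cluster. Slbp was higher in bulk in 7 of 7 clusters (0.068 to 0.41). Ung was higher in localized than in control cells in 6 of 7 clusters, by amounts from 0.096 in cluster 2 to 1.38 in cluster 7, and stood at -0.037 in cluster 5. In cluster 4 it stood at 34.4 CPM in control, 38.0 in bulk and 49.9 (46.3 to 53.7) in localized cells, in the mitotic-like cluster 2 at 6.72, 8.23 and 7.25 CPM with overlapping intervals, and in cluster 5 at 7.58, 6.20 and 7.36 CPM. Beside the ratio of 0.84 over all cells, the other clusters gave 0.70 (cluster 1), 0.91 (cluster 3), 0.52 (cluster 4) and 0.51 (cluster 6), so the excess was not limited to cluster 4. Clspn also varied by cluster: its bulk ratio was 0.41 over all cells, 0.54 in cluster 2, 0.12 in cluster 4 and -0.14 in cluster 1, the cluster with the most cells. Mcm10 in cluster 4 had 45.0, 43.7 and 45.3 CPM, with no excess in bulk, whereas in cluster 2 it had 23.1, 34.3 and 21.7 CPM. The bulk excess of Clspn and Mcm10 was therefore larger in cluster 2 than in cluster 4; this difference has counting intervals only and was not tested.

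Cluster 4 and cluster 2 also order the genes. The log2 ratio of cluster 4 to cluster 2 was highest for Ung (2.20 in control, 2.08 in bulk and 2.63 in localized cells) and Cdc6 (1.57, 1.36 and 2.01). It was lowest for Rrm1 (0.057, -0.028 and -0.14) and Tyms (-0.025, 0.16 and -0.27), whose levels were about the same in both clusters. Taken from the bulk library, so that no cells are shared, this cluster ratio was compared with the localized over control ratio. Pearson's r over the 32 genes was 0.62 and Spearman's rho 0.58, and 0.42 and 0.52 over the 30 genes without Ung and Cdc6. The genes are not independent replicates, and all points share the same 3 libraries, so this is a description: genes with more RNA in cluster 4 than in the mitotic-like cluster tended to be those higher in localized cells. For the bulk over control ratio, with the cluster ratio from localized cells, r was 0.24 and rho 0.23. For bulk over localized, with the cluster ratio from control cells, r was -0.51 and rho -0.26. Without Ung and Cdc6 these last values were -0.16 and -0.12. Rpa2 (0.64 at a cluster ratio of 0.42) and Pola1 (-0.50 at 0.43) had nearly the same cluster ratio and opposite differences, so their positions in the libraries did not follow this order.

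**Figure D5:**
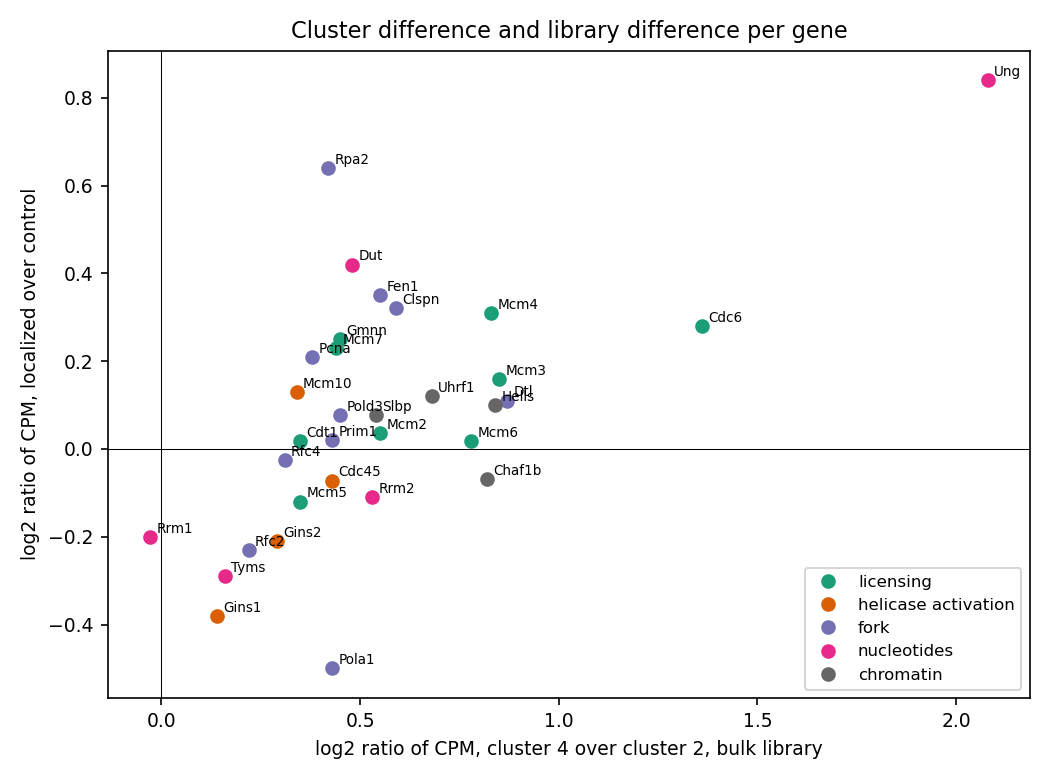
Each point is 1 of the 32 genes, coloured by role, with the log2 ratio of cluster 4 to cluster 2 in the bulk library on the x axis and the log2 ratio of localized to control on the y axis. Ung (2.08 and 0.84) lies at the upper right, Rrm1, Tyms and Gins1 at the lower left, and Rpa2 and Pola1 stand above and below the other genes near 0.43.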

How the data were processed

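Single-cell transcriptomes of 3 libraries were deposited as counts of UMIs per gene and barcode; Cell Ranger 4 wrote the tables per the file headers, while the submitters' processing notes name Cell Ranger 6, Seurat 4.0.4 and build GRCm38. The annotation release is not given in the sources used here. Cells were barcodes with at least 3000 UMIs, 500 genes and at most 20% mitochondrial UMIs. Library totals in cells were 61775756, 77491732 and 76177026 UMIs. Counts were summed over cells, scaled to CPM, and compared as log2 ratios with a pseudocount of 1 CPM. Intervals are exact (Poisson, Clopper-Pearson, conditional binomial) at 95% and cover counting error only. Coverage was checked for the ratio intervals alone, on simulated Poisson counts. These intervals assume such counts, so the check says nothing of the spread between cells or cultures. Cells were clustered with scanpy 1.11.5 and leidenalg 0.10.2 on 2000 variable genes, leaving out the 32 genes (30 components, 15 neighbours, resolution 0.5). No doublet caller was run; leaving out cells above 25000 UMIs was an alternative. All 32 genes are named, and at most 4 of each other list per comparison, those with the largest ratio in size. The genes and lists were chosen with earlier results of these data known. Gene positions are from GENCODE vM21.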

Additional observations from a re-analysis of the deposited data

How the results depend on the processing

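Median-of-ratios scaling gave replication medians of -0.0039 for bulk over control and of -0.12 for localized over control, beside -0.043 and -0.075 for all genes. It put 3 genes past the fold limit in bulk over control and 7 in bulk over localized. The share of all genes past the fold limit was then 9.48% upwards and 12.8% downwards in bulk over control. It was 11.0% and 20.3% in localized over control, and 13.6% and 9.37% in bulk over localized. In the cluster with the most cells alone, the medians were -0.041 in bulk over control and -0.21 in bulk over localized. In bulk over control 15 genes were past the fold limit, 6 upwards and 9 downwards, beside 27.9% and 7.76% of all genes. In localized over control 15 were, 12 upwards and 3 downwards, beside 35.2% and 9.72%. In bulk over localized 12 were, 1 upwards and 11 downwards, beside 12.9% and 18.1%. Clspn in bulk over control was -0.14 there, opposite in sign to its value over all cells. Its levels there were 13.9 CPM (12.1 to 16.0) in control and 12.5 CPM (10.8 to 14.5) in bulk cells, with overlapping intervals. The cause was not tested. Replication-rich cells were 19.5%, 34.0% and 31.6% of control, bulk and localized cells without thinning, and 18.7%, 22.5% and 23.2% with thinning to 6000 UMIs, which left out 1053, 608 and 493 shallower cells. Weighing each cell the same, another cell minimum, cells of 6000 to 20000 UMIs, leaving out cells above 25000 UMIs, a pseudocount of 0.1 CPM and no filter on low values left the medians and counts within the limits used. No paired analysis was possible because each group has 1 library and the labels carry no replicate numbers.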

Other observations

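Clusters 8 and 10 lay almost wholly outside the control library and enter no comparison within clusters. Their cells are counted in all values over whole libraries. Bulk cells of cluster 8 held 20260 of the 169811 replication UMIs of the bulk library. Cluster 8 is led by interferon-response genes such as Ifit1 and Rsad2, and 417 of its 443 cells came from the bulk library. Its bulk cells had a summed level of the 32 replication genes of 1963 CPM (1936 to 1990), between the mitotic-like clusters 2 (2891 CPM) and 6 (1816 CPM) of that library, and 13.9% of them (10.7 to 17.6) were replication-rich. Cluster 10 is led by histone genes and held 31 bulk and 30 localized cells of low depth, with medians of 3820 and 3533 UMIs. In its bulk cells the replication level was 2898 CPM (2618 to 3200), and in its localized cells 3099 CPM (2792 to 3430).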
